A study of Mus musculus with 59 samples.

Results

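Wdfy1, a gene of mouse chromosome 1, was expressed at 2 separate levels in the cortex of these mice, and the comparison described here sets the animals at the lower level against those at the higher one. The classes were chosen by the measured Wdfy1 value itself: CPM (the count of a gene as a share of the library total, scaled to 1e+06 counts) under 34 in the cortex library made a low-class animal, and 34 or more a high-class animal. This gave 20 low-class and 10 high-class libraries, which are all 30 cortex libraries among the 59 libraries of the series. The level of Wdfy1 in cortex is therefore a description without a test, and the question was which other genes followed the class, in cortex and then in the 29 hippocampus libraries of the same animals, which the rule did not use. No gene other than Wdfy1 passed the edgeR test in either tissue. In hippocampus Wdfy1 itself differed by 1.55-fold, and all 29 animals stood on the side that their cortex had given them.

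The study measured poly(A) RNA of male mice of 4 labelled genotypes that combine a heterozygous loss of Slc25a1, the mitochondrial citrate carrier, with one of Mrpl40, which codes for a mitochondrial ribosomal protein. The genotypes are written Mrpl40 +/+,Slc25a1 +/+ (here wild type), Mrpl40 +/+,Slc25a1 -/+ (here Slc25a1 het), Mrpl40 -/+,Slc25a1 +/+ (here Mrpl40 het) and Mrpl40 -/+,Slc25a1 -/+ (here double het). The labels give each animal a number of its own, so replicates are separate animals. They name no treatment, age, strain or substrain, and no source of the alleles. The low class held 6 wild-type animals, 6 Slc25a1 het, 3 Mrpl40 het and 5 of the double genotype, and the high class held 3, 1, 4 and 2 in the same order. All 4 genotypes were present in both classes, and genotype as labelled was a covariate in every main fit.

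Wdfy1 encodes a protein with WD repeats and a FYVE domain. FYVE domains are zinc fingers that bind phosphatidylinositol 3-phosphate, the lipid that marks early endosomes, and the protein sits on those membranes. It has been described as an adaptor that brings TRIF to the endosomal receptors TLR3 and TLR4, upstream of interferon and NF-kappa-B signalling. Wdfy1 is also known as one of the genes whose expression differs between substrains of the C57BL/6 mouse.

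In GENCODE vM21 (GRCm38) Wdfy1 (ENSMUSG00000073643, protein coding) covers chromosome 1 from 79702262 to 79776143 on the minus strand, whereas the submitters' processing notes name GRCm39, and genes were matched by Ensembl identifier. The annotation holds 14 transcripts, of which 7 start at 79761769 and 1 starts 14.4 kb upstream of that, at 79776143. The first coding exon is shown because 10 of the 14 transcripts open their reading frame in it, so it is the coding start that most annotated forms of the RNA share. It lies at chr1:79761564-79761700 on the minus strand and is printed 5′ to 3′ from the start codon, in capitals.
Wdfy1 first coding exon: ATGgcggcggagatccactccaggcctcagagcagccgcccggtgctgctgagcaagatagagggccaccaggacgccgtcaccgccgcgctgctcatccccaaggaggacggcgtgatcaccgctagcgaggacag
The counts are sums over the whole gene, so they do not show which transcripts carry the difference between the classes.

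In cortex Wdfy1 ranged from 24.4 to 30.2 CPM with a median of 26.8 in the 20 low-class libraries, and from 38.6 to 45.6 CPM with a median of 42.7 in the 10 high-class libraries. The means were 27.0 ± 1.89 (SD, n = 20) and 42.3 ± 2.38 CPM (SD, n = 10), a ratio of 1.57. The value just under the limit was 30.2 CPM and the value just above it was 38.6 CPM, both in wild-type animals. This gap of 8.48 CPM was the widest between neighbouring libraries, and the next widest was 1.34 CPM. The counts behind these values ran from 540 to 1260 per library. Within a class the libraries varied by a coefficient of variation of 7.02% (low) and 5.62% (high). Counting alone would give 3.36% at the mean count over the cortex libraries of both classes together. The classes thus form a pair of narrow bands with an empty interval between them, as the plot of Wdfy1 in each cortex library shows.

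Each labelled genotype held libraries of both classes in cortex. The order of the classes follows from the cut at 34 CPM, so the ranges are a description. Wild-type animals had 25.5 to 30.2 CPM in the low class (n = 6) and 38.6 to 43.5 CPM in the high class (n = 3). Slc25a1 het animals had 24.4 to 30.1 CPM in the low class (n = 6), and the 1 high-class animal had 45.6 CPM. Mrpl40 het animals had 25.4 to 27.4 CPM in the low class (n = 3) and 39.1 to 44.9 CPM in the high class (n = 4). Double het animals had 24.4 to 28.8 CPM in the low class (n = 5) and 40.4 to 44.0 CPM in the high class (n = 2). No genotype had a library between the bands.

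Hippocampus gave the same order of the 2 classes from separate libraries of the same animals. The 19 low-class animals ranged from 21.9 to 29.1 CPM with a median of 25.0, and the 10 high-class animals from 36.7 to 41.4 CPM with a median of 38.6. The groups did not overlap, and the gap between them was 7.57 CPM. Within a class, Pearson's r between cortex and hippocampus CPM was -0.064 (low, n = 19) and 0.519 (high, n = 10). Neither passed a permutation test (p = 0.795 and 0.124). The mean was 25.4 ± 1.89 CPM (SD, n = 19) in the low class and 38.7 ± 1.54 CPM (SD, n = 10) in the high class. In the edgeR quasi-likelihood fit the low class was lower by 1.55-fold (log2 difference -0.63 ± 0.034 SE, Benjamini-Hochberg adjusted p = 7.1e-14, all 19 animals below all 10 of the high class). Here and below, differences are low minus high class on the log2 scale, so that a negative value is lower in the low class. Wdfy1 was the only gene of 20774 tested in hippocampus that passed an adjusted p of 0.05 (0.00481% called), and the only one whose classes did not overlap in CPM (0.00481%). The low-class animal labelled wild type replicate 1 has no hippocampus library among those used here.

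The fitted differences of Wdfy1 were -0.66 in cortex and -0.63 in hippocampus, and since the classes were set on the cortex values, the 2 sizes are given side by side without a test. The class difference of every gene tested was then compared between the tissues in a fit over the 58 libraries of the 29 animals, with the animal as a block. Of 20925 genes, Wdfy1 among them, 0 (0%) passed an adjusted p of 0.05 in edgeR, and 528 (2.52%) had an unadjusted p under 0.05. For Wdfy1 itself this fit is no test, since its cortex values set the classes.

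**Figure D1:**
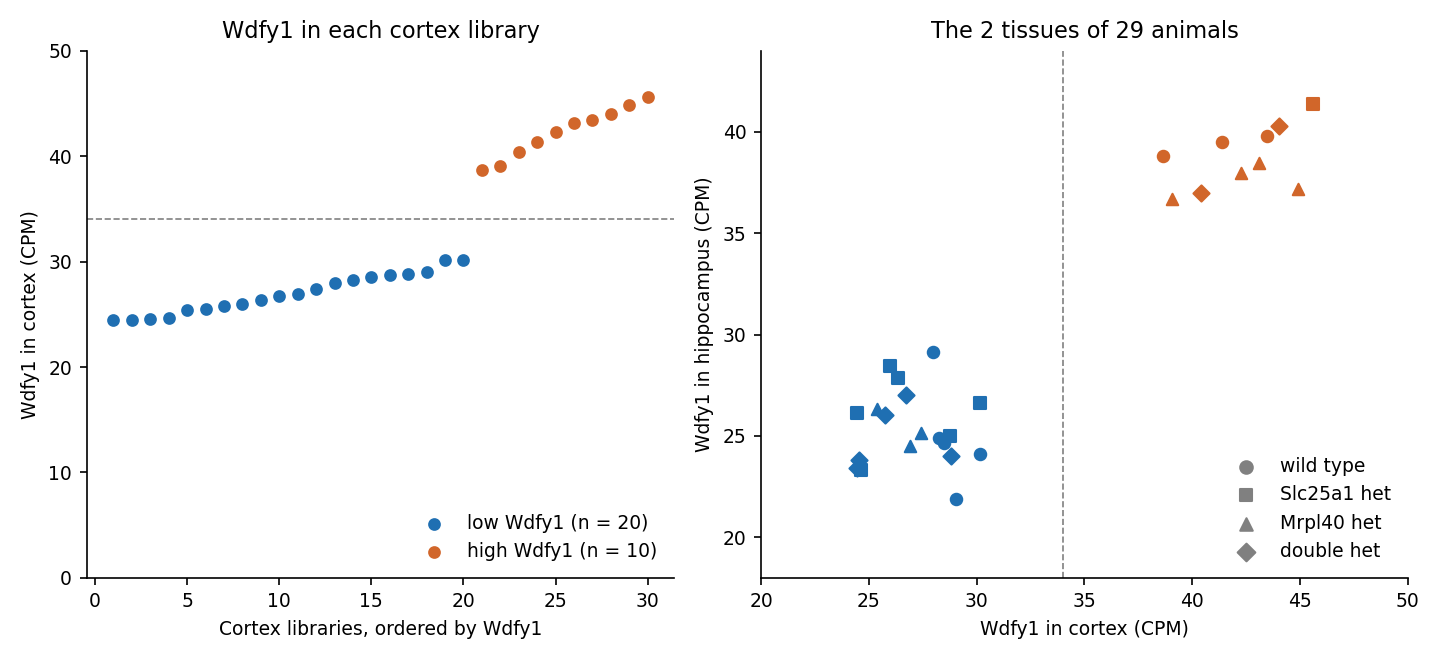
Left, Wdfy1 in CPM in each of the 30 cortex libraries, ordered by value, with the limit of 34 CPM as a dashed line. The low class (blue) ends at 30.2 CPM and the high class (orange) begins at 38.6 CPM. Right, cortex against hippocampus CPM for the 29 animals with both tissues, with symbols for the labelled genotype. The 19 low-class and 10 high-class animals form separate clouds, and both clouds hold all 4 genotypes.

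Library totals ranged from 26028656 to 32120906 counts in the high class and from 21443017 to 31854093 in the low class in cortex. In 6 animals the Slc25a1 level goes against the labelled genotype at a limit of 16 CPM, and 5 of these are low-class and 1 is high-class, so the genotype covariate is the labelled one and not always the measured one. Slc25a1 was under 16 CPM in 10 of 20 low-class and in 2 of 10 high-class cortex libraries. With labelled genotype in the model its class difference was -0.11 ± 0.16 in cortex and -0.19 ± 0.17 in hippocampus on the log2 scale, and Mrpl40 differed by -0.0029 ± 0.050 and 0.013 ± 0.044. Neither passed the edgeR test (adjusted p = 0.999 in cortex for both). Removing the 6 animals left the hippocampal difference of Wdfy1 in place and gave 0 other calls in either tissue.

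Among the other 21052 genes tested in cortex, 0 passed an adjusted p of 0.05 in edgeR (0% called), and 0 (0%) had CPM values that did not overlap between the classes. At an unadjusted p under 0.05 there were 1021 genes (4.85%), of which 528 were higher and 493 lower in the low class. Among the 20773 other genes tested in hippocampus 0 passed, and 620 (2.98%) had an unadjusted p under 0.05, of which 328 were higher and 292 lower. The DESeq2 Wald test called 1 other gene in cortex, Fer1l5, and 2 in hippocampus, the unnamed gene 1700025F22Rik and the predicted gene Gm14283. The precision was enough to see a change of the size of the Wdfy1 step in most genes. The median standard error was 0.065 in cortex and 0.075 in hippocampus on the log2 scale. Of 16619 cortex genes with a mean of at least 0 on the log2 CPM scale, 16417 (98.8%) had a 95% interval lying wholly within ± 0.58, the lower end of the interval of Wdfy1. Changes smaller than that are not excluded.

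**Figure D2:**
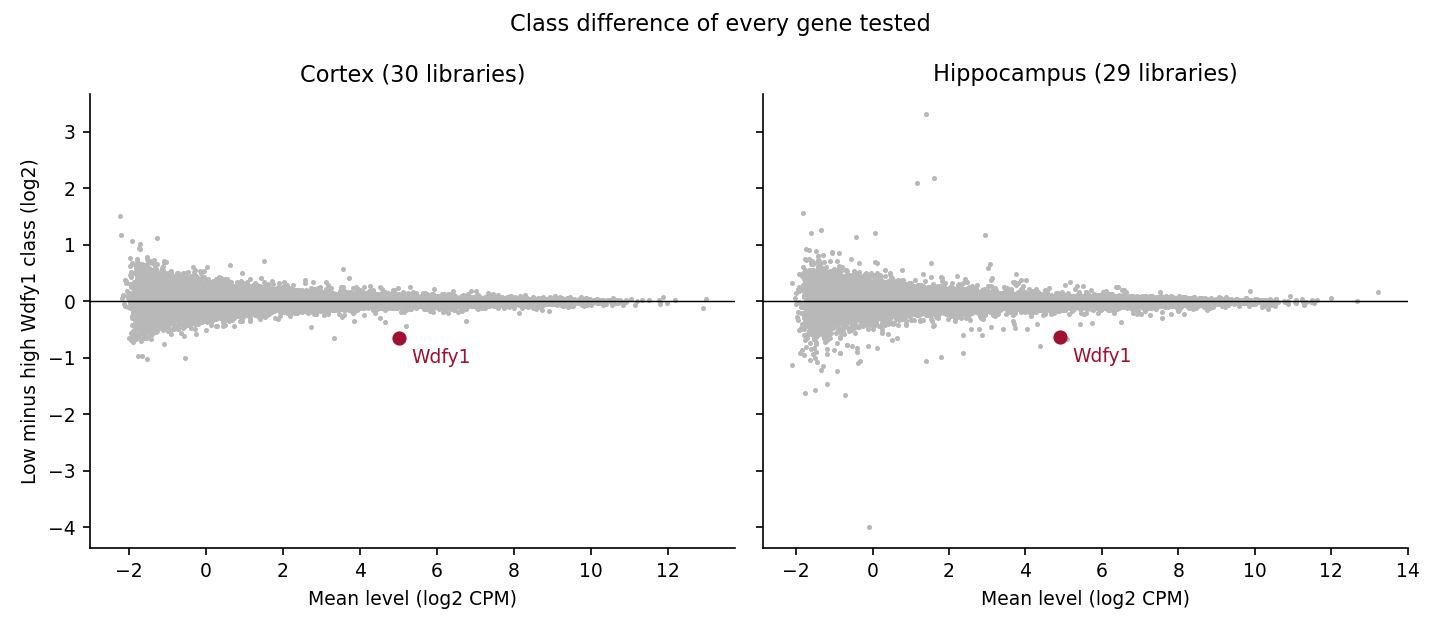
Low minus high class on the log2 scale (vertical axis) against the mean level in log2 CPM (horizontal axis) for every gene tested, in cortex (left, 30 libraries) and hippocampus (right, 29 libraries). Wdfy1 (red) lies at -0.66 in cortex and at -0.63 in hippocampus, away from genes of like level, while the spread of the other genes (grey) widens toward low levels.

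The genes with the smallest p in cortex mostly had smaller differences in hippocampus. They were picked by their p in cortex, so only their hippocampus values are a check. Fer1l5, a ferlin family gene of chromosome 1, had the smallest p. It ranged from 10.1 to 13.8 CPM (median 10.9) in the low class and from 11.2 to 15.3 CPM (median 13.3) in the high class. These ranges overlap over most of their width. The cortex difference was -0.24 ± 0.049 (edgeR adjusted p = 0.202, DESeq2 adjusted p = 0.0467), and in hippocampus it was -0.033 ± 0.054 with ranges of 21.4 to 30.3 and 24.3 to 30.5 CPM. Gm10616, a predicted gene, differed by 1.12 ± 0.24 in cortex (edgeR adjusted p = 0.232) at levels of 0.103 to 0.654 CPM, and by 0.34 ± 0.21 in hippocampus (unadjusted p = 0.108). It passed in cortex without the genotype covariate (edgeR adjusted p = 0.0407) and when the library of Mrpl40 het replicate 7 was left out. Apcdd1, an inhibitor of Wnt signalling, differed by 0.25 ± 0.054 in cortex (edgeR adjusted p = 0.311) and by 0.11 ± 0.057 in hippocampus (unadjusted p = 0.065). Cpxm1, a carboxypeptidase-like gene, differed by 0.25 ± 0.060 and by 0.056 ± 0.060.

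In a pair of these genes the hippocampus difference was of like size and sign, far under that of Wdfy1. Pacsin2, which shapes membranes in endocytosis, differed by -0.11 ± 0.027 in cortex (edgeR adjusted p = 0.639) and by -0.12 ± 0.070 in hippocampus (unadjusted p = 0.0999). Zfp46, a zinc finger gene, differed by 0.14 ± 0.034 in cortex (edgeR adjusted p = 0.648) and by 0.16 ± 0.066 in hippocampus (unadjusted p = 0.0252). In both genes the CPM ranges of the classes overlapped in both tissues. Of 973 genes at an unadjusted p under 0.05 in cortex that were also tested in hippocampus, 689 (70.8%) had the same sign there, against 11631 of 20042 genes in all (58.0%). The libraries come from the same animals and genes are not independent, so this is a description only. In 67 of these genes the hippocampus p was also under 0.05 with the same sign, and in 10 with the opposite sign.

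Among genes of small p in hippocampus, Fkbp14, a peptidyl-prolyl isomerase of the endoplasmic reticulum, ranged from 14.9 to 17.9 CPM (median 16.0) in the low class and from 16.2 to 20.2 CPM (median 18.2) in the high class. Its difference was -0.19 ± 0.042 (edgeR adjusted p = 0.499), and in cortex it was -0.090 ± 0.050. Tktl2, a transketolase-like gene at 0.0831 to 0.617 CPM, differed by 1.21 ± 0.28 in hippocampus (edgeR adjusted p = 0.638) and by 0.20 ± 0.21 in cortex.

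Likeness to Wdfy1 was measured as Pearson's r of log2 CPM over the 30 cortex libraries after the mean of each labelled genotype was removed. The 5 highest values were those of 4930590J08Rik (r = 0.689), Usp37 (0.658), ENSMUSG00000118018 (0.654), Phf20 (0.644) and Gm28064 (0.633). The 5 lowest were those of Gm10616 (-0.686), Gm10524 (-0.670), Gm42768 (-0.655), Gm33680 (-0.647) and Mcrip1 (-0.644). In all, 19 genes lay beyond 0.6 in either direction. The libraries share depth and dissection, and these 10 genes were picked as extremes, so no test was made. In the 29 hippocampus libraries the r of the same genes was smaller in size. It was 0.033 for 4930590J08Rik, 0.182 for Usp37, 0.222 for ENSMUSG00000118018, 0.359 for Phf20 and 0.318 for Gm28064. For the negative group it was -0.376 for Gm10616, -0.180 for Gm10524, -0.389 for Gm42768, -0.133 for Gm33680 and 0.227 for Mcrip1, whose sign turned. Usp37, a ubiquitin protease, starts 5.23 Mb from Wdfy1, and its class difference was -0.12 ± 0.037 in cortex (edgeR adjusted p = 0.999) and -0.025 ± 0.045 in hippocampus.

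No neighbour of Wdfy1 passed the test in either tissue. Of 69 genes measured in cortex that start within 5 Mb of it, 37 were higher and 32 lower in the low class, with a median of 0.0033 on the log2 scale, against 0.0015 over all genes tested. None passed the edgeR test, and 1 gene, Sgpp2, had an unadjusted p under 0.05. In 60 of the 69 the 95% interval excluded a change of the size of Wdfy1. In hippocampus 70 were measured, 30 higher and 40 lower, with a median of -0.0049, and 0 passed. There Gm816, a predicted gene at 0.0348 to 0.51 CPM, was the 1 gene with an unadjusted p under 0.05 (-0.84 ± 0.30, edgeR adjusted p = 0.99995). Within 10 Mb, 9 of 156 genes had an unadjusted p under 0.05 in cortex and 0 passed. Over the whole of chromosome 1, 5.07% of tested genes had an unadjusted p under 0.05 in cortex, close to the 4.85% of all genes.

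Mrpl44, which also codes for a mitochondrial ribosomal protein, is the closest neighbour. Its gene starts on the other strand 125 bases inside the Wdfy1 gene model, at 79776018, beside the start of the most upstream of the 14 Wdfy1 transcripts. The start that 7 of the Wdfy1 transcripts use lies 14.4 kb from the most upstream one. In cortex it ranged from 15.9 to 20.3 CPM (median 18.4) in the low class and from 16.9 to 19.3 CPM (median 18.2) in the high class. In hippocampus it ranged from 17.0 to 24.0 CPM (median 18.9) and from 17.2 to 21.3 CPM (median 19.6). The high class lay within the range of the low class in both tissues. The differences were -0.010 ± 0.040 in cortex (edgeR adjusted p = 0.999) and -0.050 ± 0.048 in hippocampus (adjusted p = 0.99995).

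The start region of Mrpl44 is shown because the most upstream Wdfy1 transcript also begins there, and whether that transcript carries any of the Wdfy1 difference cannot be read from counts per gene. In the RefSeq promoter window of Mrpl44 (GRCm38.p6, 250 bases before to 50 after its start) the motif GCGCANGCG, the core of sites for the factor NRF1 less its last base, was searched on both strands, whose matches can overlap each other. It occurs at 1 place, 35 bases before the start, inside the first exon of the Wdfy1 transcript that starts most upstream. Among 32851 windows of the same length, 2053 (6.25%) hold this motif. The 29 bases around it, chr1:79775973-79776001 on the plus strand, are printed 5′ to 3′ with the match in capitals.
Mrpl44 start region: agaagcacttGCGCACGCGcagtacacta
A match is a description of letters and not of binding.

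The other near neighbours had like values. Ap1s3, a subunit of the AP-1 clathrin adaptor, starts 0.104 Mb away and ranged from 3.16 to 6.17 CPM in the low class and from 3.68 to 6.18 CPM in the high class in cortex, a difference of 0.043 ± 0.083. Serpine2, an inhibitor of serine proteases, starts 0.085 Mb away on the other side and ranged from 140 to 167 and from 139 to 162 CPM, a difference of 0.016 ± 0.027. Their ranges overlapped almost fully, and in hippocampus the differences were -0.028 ± 0.096 and -0.041 ± 0.059. Scg2, a secretogranin of dense-core vesicles, differed by 0.0068 ± 0.054 and -0.0049 ± 0.048. Cul3, a scaffold of ubiquitin ligases, differed by -0.018 ± 0.028 and -0.0044 ± 0.033. Acsl3, a long-chain acyl-CoA synthetase, differed by -0.011 ± 0.027 and -0.051 ± 0.045, and Farsb, a subunit of phenylalanyl-tRNA synthetase, by -0.0026 ± 0.037 and -0.021 ± 0.035. None passed the edgeR test. Gm10555, an antisense gene inside Wdfy1, had 0 counts in all 59 libraries.

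Sgpp2, a phosphatase of sphingosine 1-phosphate that starts 1.47 Mb from Wdfy1, was the exception in cortex by its unadjusted p. It ranged from 16.7 to 26.0 CPM (median 21.6) in the low class and from 19.7 to 31.7 CPM (median 28.1) in the high class. Most high-class libraries were above most low-class libraries, but the ranges overlapped. The difference was -0.30 ± 0.073 (edgeR adjusted p = 0.723). In hippocampus the ranges were 7.10 to 19.5 CPM and 7.86 to 12.3 CPM and the difference was 0.020 ± 0.15. Its 95% interval, -0.297 to 0.337, holds the cortex value of -0.296, so whether the cortex difference recurred cannot be decided. The highest low-class values there were those of Slc25a1 het replicate 3 (19.5 CPM) and wild type replicate 8 (19.3 CPM). The next was that of double het replicate 1 (14.1 CPM). The difference between the tissues did not pass the edgeR test for this gene.

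**Figure D3:**
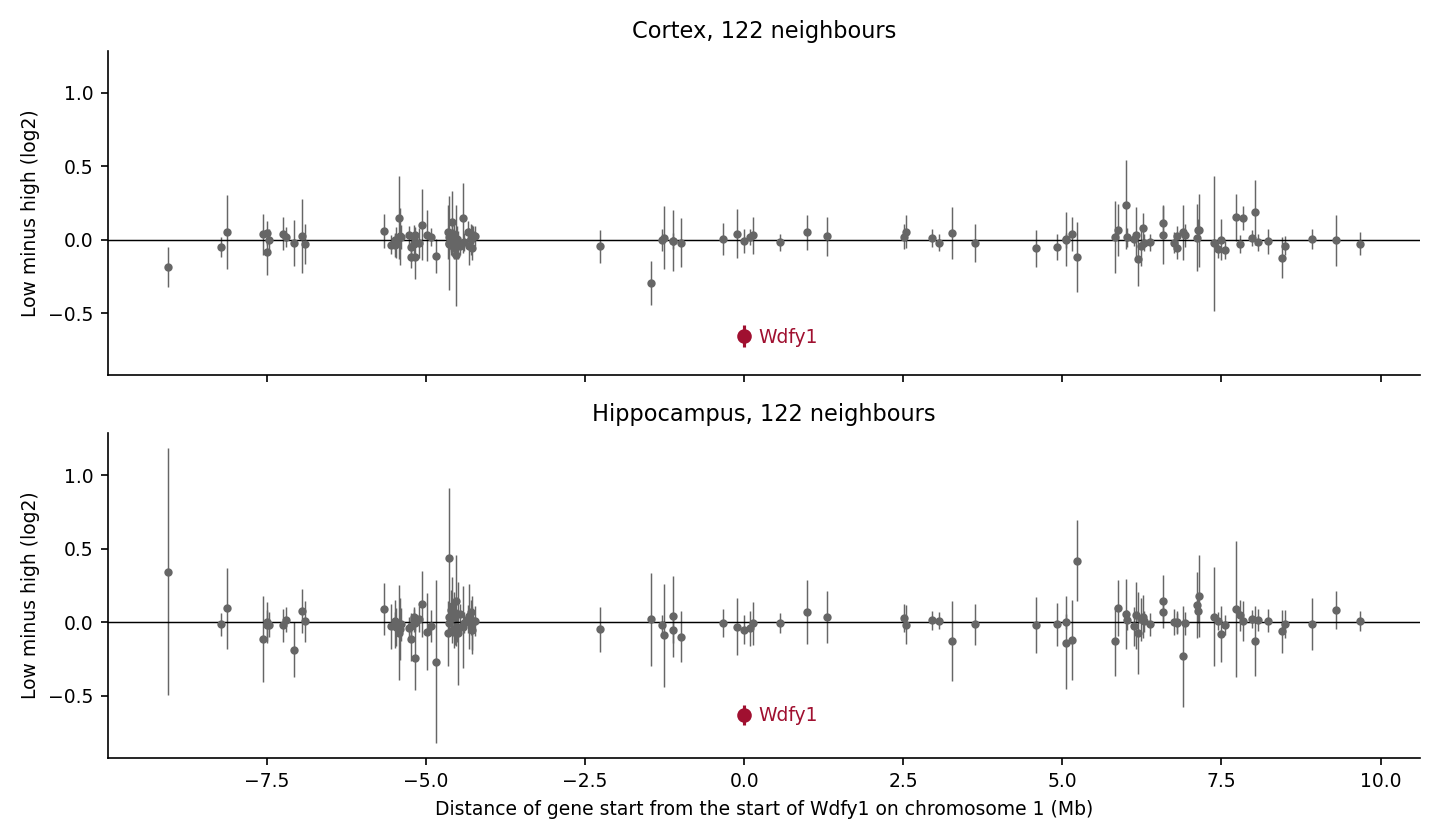
Low minus high class on the log2 scale with 95% intervals (vertical axis) against the distance in Mb of each gene's start from the start of Wdfy1 (horizontal axis), for genes within 10 Mb with a mean of at least 0 on the log2 CPM scale, in cortex (top) and hippocampus (bottom). The 122 neighbours in each tissue (grey) scatter about 0, and Wdfy1 (red) stands at -0.66 and -0.63.

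**Figure D4:**
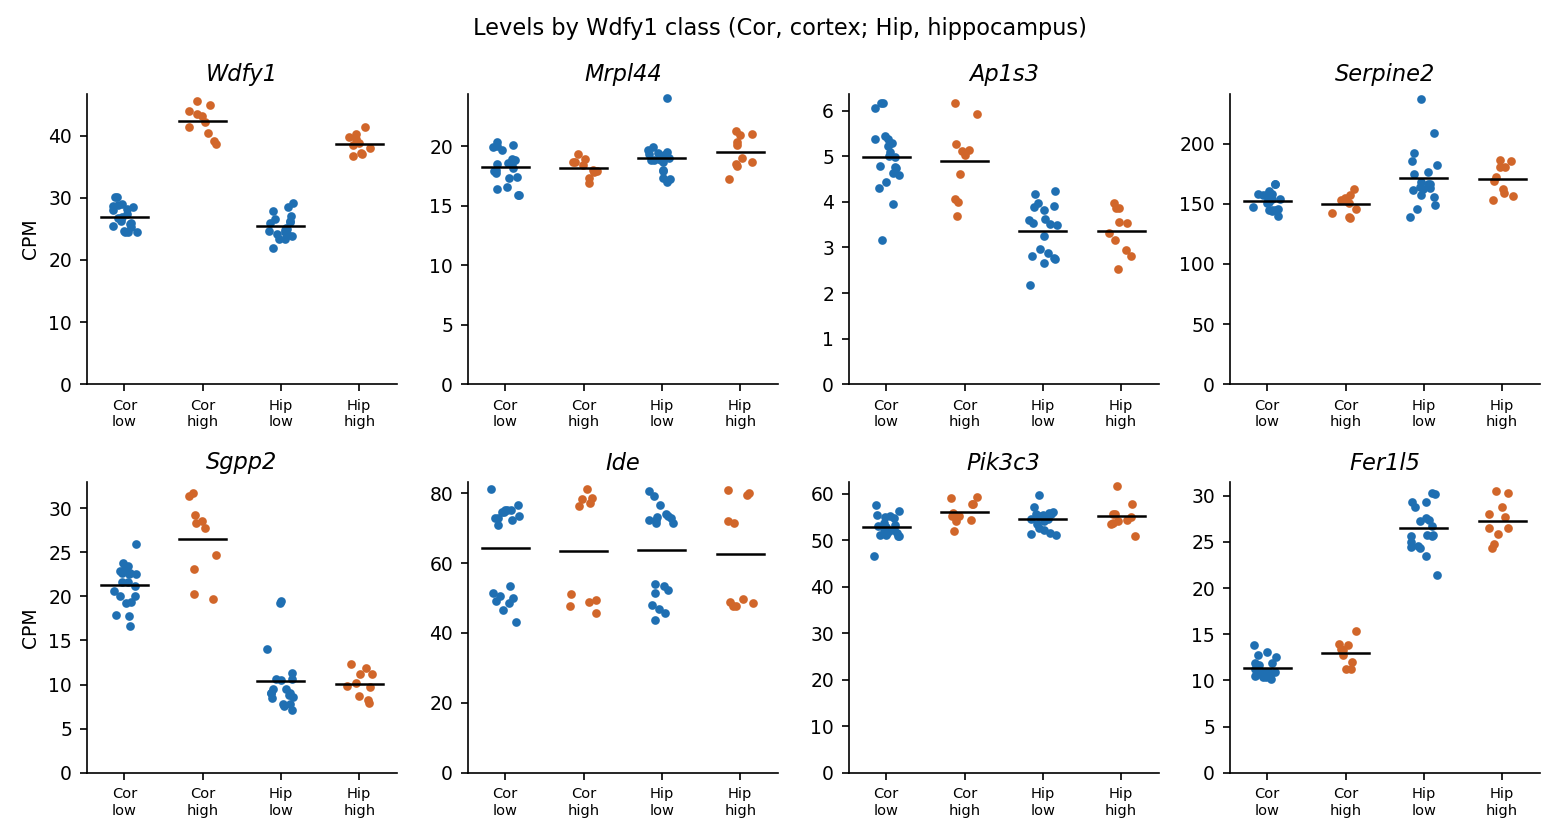
CPM of 8 genes in each library, by class (low blue, high orange) and tissue (Cor, cortex; Hip, hippocampus), with the class mean as a black line. The Wdfy1 classes do not overlap in either tissue. Mrpl44, Ap1s3 and Serpine2 overlap almost fully, Sgpp2 and Fer1l5 are lower in the low class in cortex with overlap, Ide has levels of its own in both classes, and Pik3c3 overlaps.

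Relatives of Wdfy1 and the genes of its compartment showed no change that passed the test. Wdfy2, the most similar family member, ranged from 20.1 to 27.3 CPM in the low class and from 21.3 to 26.1 CPM in the high class in cortex, a difference of -0.058 ± 0.049, and differed by -0.049 ± 0.041 in hippocampus. Wdfy3, an adaptor of selective autophagy, differed by -0.034 ± 0.024 and -0.0049 ± 0.038. Wdfy4, known for its role in dendritic cells, differed by 0.069 ± 0.092 and 0.13 ± 0.11. None of the 3 passed the edgeR test in either tissue, and the CPM ranges of their classes overlapped.

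The list of FYVE proteins and of enzymes and effectors of phosphatidylinositol 3-phosphate had 38 of 39 members measured in cortex. Of these 11 were higher and 27 lower in the low class, with a median of -0.013, and 0 passed. In hippocampus 17 were higher and 21 lower with a median of -0.0075, and 0 passed. In 38 of 38 the cortex interval excluded a change of the size of Wdfy1. Pik3c3, the lipid kinase Vps34 that makes phosphatidylinositol 3-phosphate, had the smallest p. It ranged from 46.5 to 57.5 CPM (median 52.7) in the low class and from 52.0 to 59.2 CPM (median 55.5) in the high class, which overlap. Its difference was -0.089 ± 0.030 in cortex (edgeR unadjusted p = 0.00519, adjusted p = 0.999) and -0.011 ± 0.032 in hippocampus. Pikfyve, which phosphorylates that lipid further, differed by -0.0059 ± 0.029 in cortex. The endosomal GTPase Rab5a differed by -0.0073 ± 0.032, its tethering partner Eea1 by -0.010 ± 0.029, and the sorting protein Hgs by -0.012 ± 0.030.

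The pathway in which Wdfy1 has been described, TLR3 and TLR4 signalling through TRIF, had no member past the test. Of 27 members 24 were measured in cortex, 12 higher and 12 lower, with a median of 0.0040 and 0 past the test. In hippocampus 11 were higher and 13 lower, with a median of -0.0084 and 0 past the test. In 24 of 24 the cortex interval excluded a change of the size of Wdfy1. Among the receptors, Tlr3 ranged from 13.4 to 19.8 CPM in the low class and from 14.0 to 19.9 CPM in the high class in cortex, a difference of -0.0068 ± 0.052. Tlr4, at 0.226 to 1.28 CPM, differed by -0.030 ± 0.18, and Unc93b1, which escorts endosomal receptors, by 0.023 ± 0.047. Ticam1, the gene of TRIF, ranged from 5.05 to 7.44 CPM and from 4.93 to 6.95 CPM, a difference of 0.0085 ± 0.067. Downstream, the adaptor Traf3 differed by -0.0061 ± 0.066, the kinase Tbk1 by -0.0035 ± 0.026 and the transcription factor Irf3 by -0.010 ± 0.047. Nfkb1, a subunit of NF-kappa-B and the member with the smallest p, differed by 0.077 ± 0.040 in cortex (edgeR adjusted p = 0.999) and by 0.0074 ± 0.035 in hippocampus.

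Interferon response genes lay a little higher in the low class without any passing the test. Of 31 measured in cortex 22 were higher and 9 lower, with a median of 0.098, and in hippocampus the counts were also 22 and 9, with a median of 0.062. Over all genes tested 51.0% were higher in cortex. Ifit1, an interferon-induced RNA-binding protein, had the smallest p. It ranged from 1.61 to 3.77 CPM (median 2.22) in the low class and from 1.04 to 2.39 CPM (median 1.78) in the high class, with a difference of 0.40 ± 0.14 (edgeR unadjusted p = 0.0071, adjusted p = 0.999). In hippocampus its difference was 0.068 ± 0.14. Markers of microglia, the resident immune cells of brain, were higher in the low class in 11 of 12 in cortex, with a median of 0.057. In hippocampus 7 were higher and 5 lower, with a median of 0.0052, and 0 of them passed in either tissue. The summed level of these markers in cortex ranged from 349 to 457 CPM in the low class and from 328 to 400 CPM in the high class. Its part in the interferon values was not tested.

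Genes known to differ between C57BL/6 substrains were examined as a list of 13, of which 10 were measured in each tissue and 0 passed in either. Ide, the insulin-degrading enzyme, itself fell into 2 separate levels in cortex, 43.2 to 53.4 and 70.8 to 81.3 CPM. The lower level was seen in 8 of 20 low-class and 5 of 10 high-class animals, so both classes held both levels. The levels of Ide thus crossed those of Wdfy1. Its class difference was 0.015 ± 0.13 in cortex and -0.013 ± 0.12 in hippocampus (edgeR adjusted p = 0.999 and 0.99995). Fgfbp3, a binding protein of fibroblast growth factors on the same chromosome as Ide, differed by 0.0016 ± 0.12 and 0.027 ± 0.12.

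Nnt, the nicotinamide nucleotide transhydrogenase of mitochondria, ranged from 0.0646 to 0.679 CPM in the low class and from 0.0342 to 0.374 CPM in the high class in cortex, a low level in every library of both classes. Its difference was 0.24 ± 0.28 in cortex and 0.20 ± 0.27 in hippocampus. Gabra2, a subunit of the GABA-A receptor, ranged from 95.3 to 154 CPM and from 110 to 164 CPM, and differed by -0.034 ± 0.065 and 0.015 ± 0.038. Entpd4b, a nucleotidase of the Golgi with a near-identical copy in Entpd4 between which reads can be split, differed by -0.18 ± 0.11 and -0.11 ± 0.10. Its low class ranged from 34.6 to 84.2 CPM and its high class from 54.3 to 81.8 CPM in cortex, so the low class reached lower values at a like upper end. Snap29, a fusion protein of autophagosomes, differed by -0.081 ± 0.050 and -0.062 ± 0.040. Cap1, a regulator of actin, differed by -0.020 ± 0.030 and -0.0090 ± 0.043, and Cyfip2, a subunit of the WAVE complex, by -0.034 ± 0.034 and -0.027 ± 0.048. Crb1, a polarity protein, differed by 0.042 ± 0.22 and -0.045 ± 0.20. Entpd4, Mmrn1 and Nlrp12 were under the filter on low counts.

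No marker of a cell type or region passed the edgeR test. The summed level of each of the 11 marker lists overlapped between the classes in both tissues, and no marker had 0 counts in all libraries of a class. The labelled tissues were checked on their markers. Hippocampal neuron markers summed to 194 to 290 CPM in cortex and 1125 to 2005 CPM in hippocampus, and cortical neuron markers summed to 2505 to 2892 CPM in cortex and 1620 to 2472 CPM in hippocampus, so the cortical list separates the tissues by less. The cortical neuron list had 6 of 10 members higher in the low class in cortex, with a median of 0.022, and Rorb, a marker of layer 4, differed by -0.10 ± 0.058. Endothelial and pericyte markers were higher in 11 of 12 members with a median of 0.072, and Vtn, a pericyte marker, differed by 0.11 ± 0.047 (edgeR unadjusted p = 0.0319, adjusted p = 0.999). Astrocyte markers were higher in 8 of 12 with a median of 0.013, and the glutamate transporter Slc1a3 differed by 0.045 ± 0.040. Among microglia markers the purinergic receptor P2ry12 had the smallest p, with a difference of 0.086 ± 0.042 (edgeR unadjusted p = 0.0497, adjusted p = 0.999). Oligodendrocyte markers were split 6 and 6 in cortex with a median of 0.0024, and in hippocampus 12 of 12 were lower with a median of -0.082. Over all genes tested in hippocampus 10194 of 20773 were lower, and 0 of the 12 markers had an edgeR unadjusted p under 0.05. The summed level of these markers there was 2236 to 5199 CPM (median 2953) in the low class. In the high class it was 2162 to 4134 CPM (median 3212). Opalin, a protein of myelinating cells, differed by 0.091 ± 0.13 and -0.037 ± 0.14. Interneuron markers were higher in 6 of 10 in cortex and lower in 9 of 10 in hippocampus, and Gad1, which makes GABA, differed by -0.083 ± 0.041 and -0.068 ± 0.046. Hippocampal neuron markers were higher in 7 and lower in 3 of 10 in cortex, with a median of 0.038. The mineralocorticoid receptor Nr3c2, among the lower members, differed there by -0.089 ± 0.042. In bulk tissue fewer cells of a type and less RNA per cell cannot be told apart.

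Immediate early genes, which respond to neuronal activity, were lower in 19 of 25 members in cortex with a median of -0.092, and lower in 12 of 25 in hippocampus. Over all genes tested 10320 of 21052 were lower in cortex. Of the immediate early genes, 0 had an edgeR unadjusted p under 0.05 in either tissue. Jun, the member with the smallest p, ranged from 37.3 to 75.0 CPM and from 37.1 to 77.9 CPM and differed by -0.14 ± 0.12. Nuclear subunits of complex I, the first enzyme of the mitochondrial respiratory chain, were higher in 18 and lower in 18 of 36 in cortex with a median of -0.00068. Ndufb2 had the smallest p among them with a difference of -0.097 ± 0.040 (edgeR unadjusted p = 0.0215, adjusted p = 0.999). Striatum markers were higher in 4 and lower in 6 of 10 in cortex, with a median of -0.082. Their summed level there had a median of 214 CPM in the low class and 216 CPM in the high class. Ppp1r1b, the DARPP-32 gene, differed by -0.12 ± 0.038 in cortex and -0.057 ± 0.065 in hippocampus. Among the higher members, Drd2 differed by 0.25 and Tac1 by 0.24 in cortex. Fibroblast and meningeal markers summed to 114 to 726 CPM in the low class and 101 to 503 CPM in the high class in cortex, and choroid plexus markers to 189 to 242 and 176 to 231 CPM. Lum, a proteoglycan of fibroblasts, differed by 0.20 ± 0.19, and Enpp2, an enzyme abundant in choroid plexus, by 0.028 ± 0.035. Cerebellum and thalamus markers summed to 71.5 to 102 and 64.8 to 101 CPM in cortex. In hippocampus they reached 763 CPM (median 131) in the low class and 189 CPM (median 117) in the high class. There 9 of the 12 members were higher and 3 lower in the low class, with a median log2 difference of 0.37. Of the 12, 0 had an edgeR unadjusted p under 0.05. Cbln3, a gene of cerebellar granule cells, reached 196 CPM in the low class there. The hippocampal difference of Wdfy1 kept its side of the threshold in each of the 29 edgeR fits that left out 1 library, the one at 763 CPM included.

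**Figure D5:**
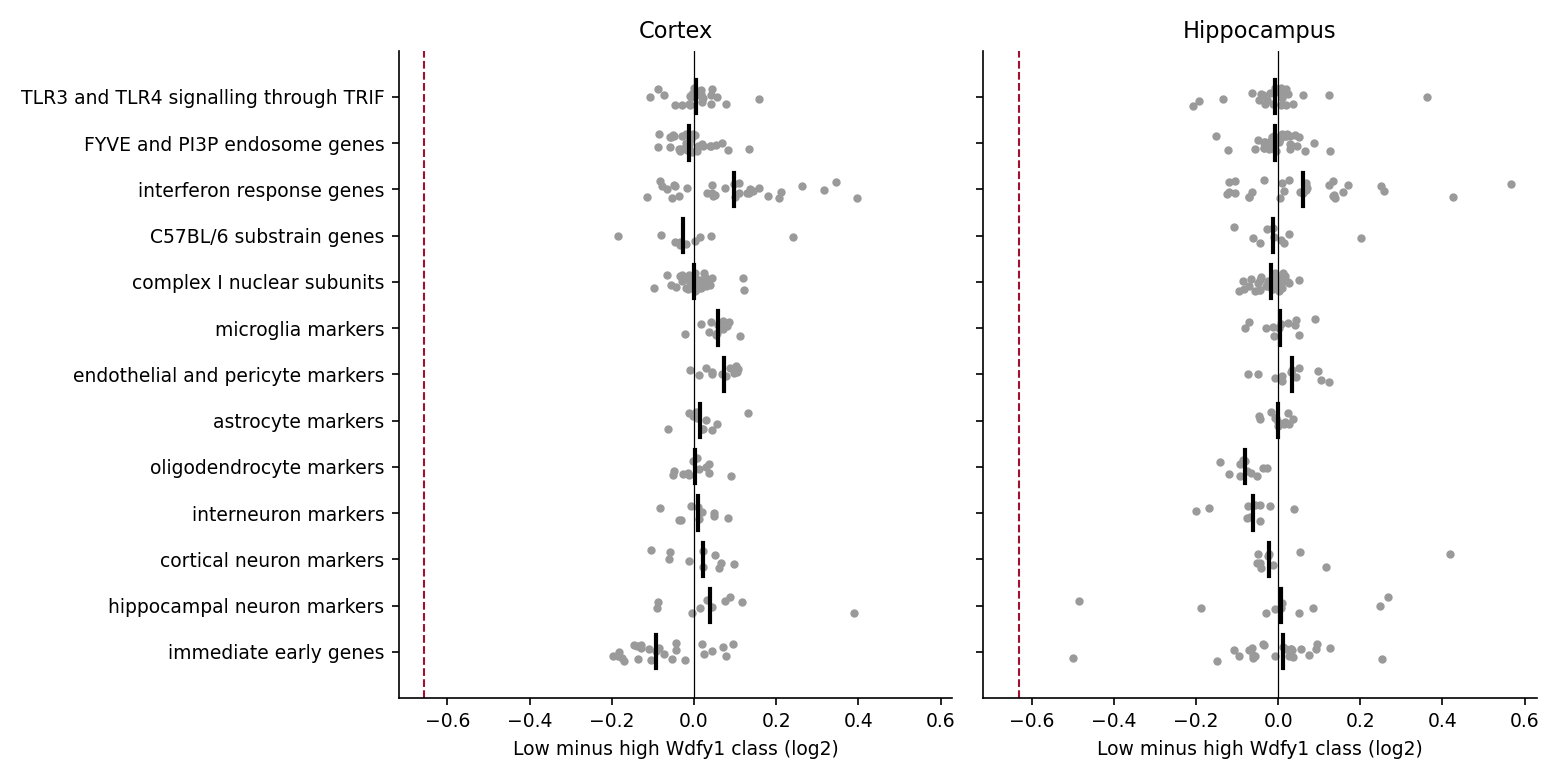
Low minus high class on the log2 scale (horizontal axis) for the measured members of 13 gene lists (grey points), in cortex (left) and hippocampus (right), with the median of each list as a black bar. The dashed line is the difference of Wdfy1 in the same tissue, -0.66 and -0.63. Every list median in cortex lies between -0.092 and 0.098.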

How the data were processed

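Poly(A) RNA of cortex (30 libraries) and hippocampus (29) of male mice was sequenced. The authors deposited raw counts per gene, and normalized counts, a signal that equals the raw count divided by 1 factor per library (checked on the values). The submitters' processing notes name FastQC, HISAT2, featureCounts, DESeq2 and GRCm39 (mm39), while annotation, strand setting and handling of shared reads were not stated in what was used here. Reads of genes that overlap can therefore be misassigned.

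Totals were 21443017 to 32120906 counts. Classes were set on cortex Wdfy1 and carried to hippocampus by animal number. Low minus high was fitted on raw counts with edgeR 4.0.16 (TMM, filterByExpr, robust quasi-likelihood test, R 4.3.3), labelled genotype as covariate, and Benjamini-Hochberg adjustment over all genes at 0.05. Log2 CPM used a prior count of 2. Values after ± beside log2 differences are standard errors. The fit between tissues had the animal as a block. The procedure was tested on simulated data. Positions came from GENCODE vM21, which matched 97.1% of genes tested in cortex, and sequences from GENCODE and RefSeq.

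The classes, gene lists and tests were chosen with earlier results of these data known. Named were Wdfy1 in every library, genes past the test, the 5 highest and 5 lowest correlations with Wdfy1, the member of each list with the smallest p, the substrain genes (1 of which is not reported here), Wdfy2, Wdfy3, Wdfy4, Slc25a1 and Mrpl40. Other genes, among them those of smallest p, the near neighbours and the chaperones, were named after their values were seen. Alternatives were DESeq2 1.42.0, its size factors in edgeR, no filter, no covariate, the class cut at the widest gap, Wdfy1 as a continuous predictor, the replicate number as a block, a fold of at least 1.2, limma 3.58.1 on log2 of the normalized count plus 1, and leaving out animals. Figures were drawn with Python 3.11.15 and matplotlib 3.10.9.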

Additional observations from a re-analysis of the deposited data

Results flagged for a closer look

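In the high class of 10 animals, 1 library stood apart from the others in 9 of 147 sets of values (78 named genes, in each tissue where the gene was tested), by a gap that is wide for its range; chance flags about 1 in 20. In cortex, wild type replicate 2 had 2.25 CPM of Crb1 (nearest 1.197 CPM) and 170 CPM of Enpp2 (nearest 196 CPM). Slc25a1 het replicate 6 had 23.4 CPM of Nfkb1 (nearest 22.1 CPM) and 692 CPM of Slc1a3 (nearest 586 CPM). Mrpl40 het replicate 7 had 7.19 CPM of Fkbp14 (nearest 7.94 CPM). In hippocampus, wild type replicate 2 had 295 CPM of Gabra2 (nearest 263 CPM) and 9.83 CPM of Gm10524 (nearest 7.23 CPM). Wild type replicate 3 had 9.84 CPM of Cpxm1 (nearest 7.84 CPM), and Mrpl40 het replicate 5 had 128 CPM of Traf3 (nearest 107 CPM). None of these genes passed the edgeR test. Wdfy1 was not among the genes with such a library in either tissue.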

How the results depend on the processing

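In cortex the count of other genes past the test was 0 in edgeR and 1 with the DESeq2 Wald test (Fer1l5, adjusted p = 0.0467) and 1 without the genotype covariate (Gm10616, adjusted p = 0.0407). It ranged from 0 to 1 when each library was left out, and the 1 call, Gm10616, appeared without Mrpl40 het replicate 7. In hippocampus the count was 2 with the DESeq2 Wald test and 0 in the other alternatives, and 0 to 0 when each library was left out. The cause of these calls was not tested. The hippocampal difference of Wdfy1 ranged from -0.645 to -0.618 over 29 fits without 1 library, and from -0.633 to -0.588 over 10 other alternatives (adjusted p from 4.38e-64 to 6.88e-09). A class cut at the widest gap, at 34.4 CPM, makes the same classes, so that fit is identical by construction. Without the filter on low counts 2237 cortex and 1581 hippocampus genes had an unadjusted p under 0.05, and with a fold of at least 1.2 there were 89 and 91. With counts of both tissues summed per animal, a fit chosen after seeing the data, 0 of the other genes passed and 1058 had an unadjusted p under 0.05. The replicate numbers were not treated as pairs, since not every pair exceeds 0.1: cortex libraries of 1 number and different genotypes correlated across genes with a median of 0.126 (-0.405 to 0.532, 22 of 42 pairs over 0.1), against -0.023 for different numbers. Cortex and hippocampus of the same animal did not all exceed 0.1 either (median 0.120, -0.035 to 0.437, 29 animals). The animal block rests on the animal numbers of the labels and not on that limit. With the replicate block 0 other genes passed in either tissue (1388 cortex and 664 hippocampus genes at an unadjusted p under 0.05), and Wdfy1 differed by -0.609 in hippocampus (adjusted p = 2.32e-10). Of 1513 values of single named genes under alternatives, 1474 stayed within 1 standard error, 37 moved further and 2 crossed the threshold. Depth limits genes of low level: a step of the size of Wdfy1 was excluded by the 95% interval in 18559 of the 21052 other genes tested in cortex.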

Other observations

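Chaperones and folding enzymes of the endoplasmic reticulum were lower in the low class in most members, in both tissues, without passing the test. This list of 18 genes was put together after the values had been seen, so its counts are a description and support nothing. In cortex 14 of 18 were lower, with a median of -0.062 on the log2 scale, 8 had an unadjusted p under 0.05 in edgeR and 0 passed after adjustment. In hippocampus 15 of 18 were lower, with a median of -0.068, 6 had an unadjusted p under 0.05 and 0 passed. Over all genes the medians were 0.0015 and 0.0014, and 4.85% and 2.98% had an unadjusted p under 0.05. The tissues come from the same animals.

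Hspa5, the BiP chaperone, ranged from 224 to 361 CPM (median 261) in the low class and from 247 to 351 CPM (median 306) in the high class in cortex. Its difference was -0.20 ± 0.060 in cortex and -0.22 ± 0.082 in hippocampus (edgeR adjusted p = 0.999 and 0.99995). The disulfide isomerase Pdia3 differed by -0.13 ± 0.039 and -0.10 ± 0.043, and Pdia6 by -0.12 ± 0.039 and -0.13 ± 0.056. The calcium-binding chaperone Calr differed by -0.096 ± 0.035 and -0.15 ± 0.052, and the secreted factor Manf by -0.099 ± 0.042 and -0.16 ± 0.071. The ranges of the classes overlapped in each of these genes in cortex. All of them were picked from the lower members of the list. The 4 members higher in cortex were Cdnf (0.11), Ppib (0.046), Creld2 (0.043) and Txndc5 (0.0054). In hippocampus the 3 higher members were Txndc5 (0.042), Ppib (0.0081) and P4hb (0.0051).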
